A study of Rattus norvegicus with 6 samples.

Results

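The comparison described here is that of lipopolysaccharide-treated against untreated rat microglia by DNase I-seq, read over all 129499 regions of the deposited count table, the same set that the whole series holds. It used 4 of the 6 libraries, 2 from untreated and 2 from treated cultures. The regions were not chosen by their response: every one was taken, and 126284 had enough reads to be tested. Called regions were sorted into sites that were newly hypersensitive after treatment and sites whose existing hypersensitivity was graded up or down, and were then described by width, starting accessibility and spacing.

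DNase I cuts DNA preferentially where nucleosomes are displaced, so a local excess of cuts (a hypersensitive site, or hotspot) marks promoters, enhancers and other bound elements. Microglia are the resident macrophages of the brain. They sense lipopolysaccharide (LPS), a component of the outer membrane of Gram-negative bacteria, through Toll-like receptor 4, and macrophage enhancers are known both to gain accessibility where they were already open and to open where they were closed.

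Untreated cultures (untreated replicates 1 and 2) received no stimulus. LPS cultures (LPS replicates 1 and 2) received LPS of Salmonella enteritidis at 100 ng/mL for 6 h. All cultures were primary cells from the cerebral cortex of Wistar rats aged 1 day. Each culture pooled 10 to 15 pups, was grown for 2 weeks, shaken off the mixed flask and rested for 48 h. DNase I was applied to the nuclei at 3 concentrations, from 0.2 to 3.2 U, during 10 min. The third group of the study, cells given medium conditioned by C6 glioma cells (GCM, 2 libraries), took part here in estimating the spread, and its lists helped to define the regions. A pool of cells gives 1 value per region, so a site open in more cells and a site more open in each cell cannot be told apart. The files name no genes, so neither the microglial identity of the cultures nor the genes beside a region were checked here, and regions are named by their position in build rn5.

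The libraries held 95.4 M and 65.2 M reads (untreated) and 80.5 M and 102.5 M (LPS), of which 10.9% to 12.2% fell in the regions. The authors' hotspot lists, one per library, held 160868 and 107489 hotspots for untreated replicates 1 and 2, and 138554 and 152869 for LPS replicates 1 and 2. Among the untreated and LPS libraries the shallowest had the shortest list, while the deepest, LPS replicate 2, did not have the longest. The 3215 untested regions had a median width of 45 bp and never more than 22 reads in a library.

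LPS changed 9.85% of the tested regions. Accessibility rose at 8470 regions (6.71% of those tested) and fell at 3963 (3.14%), by edgeR's quasi-likelihood test at a Benjamini-Hochberg adjusted p under 0.05. Of the rising regions, 3932 (3.11% of all tested) were newly appearing: they overlapped a hotspot in both LPS lists and in neither untreated list. A further 2685 (2.13% of all tested) were graded increases, with a hotspot already in both untreated lists. The remaining 1853 lay in between, 1826 of them with a hotspot in both LPS lists and in 1 untreated list. Newly appearing sites were thus 46.4% of the increases, and graded sites 31.7%.

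The falling regions split the other way. Graded decreases, which kept a hotspot in both LPS lists, numbered 1923 (1.52% of all tested, 48.5% of the decreases). Lost sites, with a hotspot in both untreated lists and in neither LPS list, numbered 1204 (0.953% of all tested, 30.4% of the decreases). The other 836 lay in between.

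These counts depended on scale and on depth of replication. With whole-library totals in place of the trimmed mean of M-values (TMM) scaling, which moved the median of all regions by 0.09 on the log2 scale, 6289 regions rose and 686 fell, so that 90.2% of the calls were increases against 68.1%. Newly appearing sites then numbered 3861 and graded increases 982, while lost sites numbered 453 and graded decreases 74. DESeq2 called 724 increases and 67 decreases at the same threshold. Without untreated replicate 1 there were 3347 increases and 1064 decreases, without untreated replicate 2 3733 and 903, without LPS replicate 1 5726 and 2571, and without LPS replicate 2 5378 and 1827. Across these fits no region was called in the opposite direction.

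A newly appearing site was typically a narrow region that went from a weak to a moderate signal. Its median level was 1.97 and 1.96 CPM (counts scaled per 1 M reads in regions) in the untreated libraries, and 4.27 and 4.08 CPM in the LPS libraries. The median log2 fold change was 1.09 (quartiles 0.92 and 1.34), and 2454 of the 3932 sites (62.4%) were fitted at over 2-fold. In 3930 of them both LPS values lay above both untreated values. That order came with the call, since 8465 of all 8470 increases had it. With 2 libraries per group, groups that do not overlap are also common without a call. Of the 113851 uncalled regions, 29301 had both LPS values below both untreated values. Uncalled regions with both LPS values above were not counted.

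Graded increases were wider and stronger from the start. Their median level was 7.43 and 7.15 CPM in the untreated libraries and 11.6 and 11.7 CPM with LPS. The median log2 fold change was 0.62 (quartiles 0.53 and 0.74), and 135 of the 2685 (5.03%) exceeded 2-fold. Median width was 574 bp, against 298 bp for newly appearing sites and 376 bp for all tested regions.

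Lost sites mirrored the newly appearing ones in size. They were 280 bp wide in the median and went from 3.49 and 3.92 CPM to 1.83 and 1.96 CPM. The median log2 change was −0.95, with 469 of 1204 (39.0%) past 2-fold. Graded decreases went from 10.3 and 10.8 CPM to 7.01 and 6.94 CPM, with a median width of 564 bp and a median log2 change of −0.58. Only 15 of the 1923 fell more than 2-fold. The hotspot status of a region follows its level, and all these regions were chosen by the contrast described, so their sizes are descriptions.

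The newly appearing sites with the largest folds show the pattern most plainly. The rule for naming regions by fold required groups that do not overlap. At chr5:119528416-119528768 (353 bp) the untreated libraries gave 0.806 and 0.841 CPM and the LPS libraries 6.09 and 5.39 CPM. The region thus went from a level that both untreated cultures shared to one 6.87-fold higher (log2 2.78 ± 0.29 SE, edgeR adjusted p = 2.76e-08, n = 2 per group).

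A pair of the top 5 sites lie near each other on chromosome 5. At chr5:83872916-83873318 the values were 1.16 and 0.841 CPM untreated and 6.40 and 6.77 CPM with LPS (log2 2.66 ± 0.27). At chr5:83657320-83657682 they were 0.716 and 1.54 CPM against 6.20 and 4.57 CPM (log2 2.34 ± 0.31). The groups did not overlap at either site, as the naming rule required. The untreated values of chr5:83657320-83657682 differed between cultures by more than 2-fold.

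On chromosome 4, chr4:2950433-2950802 went from 1.07 and 0.981 CPM to 5.48 and 6.77 CPM (log2 2.56 ± 0.28). The remaining site, chr1:14187919-14188380, began higher, at 1.88 and 1.40 CPM, and reached 8.63 and 8.65 CPM. All 5 kept their calls under every alternative fit that was run.

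Among graded increases, the largest fold was at chr10:65456882-65457283, which went from 4.12 and 5.33 CPM to 11.4 and 13.2 CPM (log2 1.43 ± 0.18, edgeR adjusted p = 7.20e-07). At chr3:163233724-163234349 the values were 5.19 and 4.20 CPM against 13.5 and 12.4 CPM. At chr8:132049134-132049712 both untreated cultures stood at about the same level, 5.46 and 5.47 CPM, and the LPS cultures at 13.3 and 15.5 CPM. These graded sites ended higher than the newly appearing ones did, with a smaller fold.

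The other graded increases named by the same rule were chr2:196959227-196959675, where the LPS cultures differed most from each other (3.31 and 4.20 CPM against 11.7 and 7.83 CPM), and chr3:72304908-72305185 (3.13 and 3.22 CPM against 8.63 and 8.00 CPM). Neither group pair overlapped, as the naming rule required.

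The largest loss was at chr15:31258154-31258481, from 4.48 and 5.75 CPM to 1.52 and 1.63 CPM (log2 −1.64 ± 0.26, edgeR adjusted p = 3.12e-05). The site chr1:215240438-215240795 went from 4.92 and 5.75 CPM to 2.13 and 1.71 CPM. A similar fall was seen at chr14:108206227-108206518, from 5.01 and 5.89 CPM to 2.03 and 2.12 CPM. At all 3 sites both LPS values lay well below both untreated values, and none reached 0. DESeq2 did not call the chromosome 14 site (adjusted p = 0.0501).

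The graded decrease with the largest fold was chr17:15138571-15139045, from 12.1 and 12.6 CPM to 4.27 and 5.63 CPM (log2 −1.29 ± 0.17, edgeR adjusted p = 1.38e-06). At chr12:49761654-49762221 the cultures of each group gave nearly the same values, 14.7 and 14.7 CPM untreated and 6.30 and 6.69 CPM with LPS. In CPM, LPS therefore left both sites with a signal close to that reached by the top newly appearing sites. Per length they ended lower. On the density ratio described below they stood at 4.06 and 4.46 with LPS, against 5.80 to 7.31 for those newly appearing sites.

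**Figure D1:**
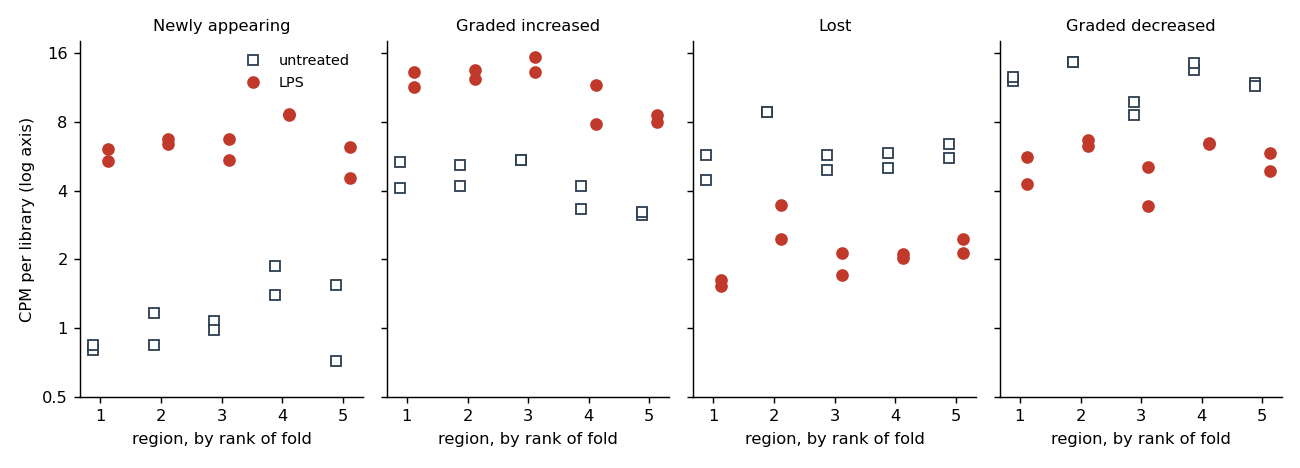
Levels in CPM (log axis) of the 5 regions with the largest fold change in each of 4 classes, ranked by fold along the x axis. Open squares are the 2 untreated libraries and filled circles the 2 LPS libraries. The groups do not overlap at any region, as the naming rule required. The newly appearing regions start near 1 CPM while graded decreases start between 8 and 16 CPM.

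Whether a newly appearing site was closed before treatment depends on the background it is set against. For each library the read density of a region was divided by the mean density outside all regions, which was 29.7 and 20.5 reads per kb in the untreated libraries and 24.9 and 31.8 in the LPS libraries. On this density ratio, newly appearing sites had an untreated median of 2.35 (5th to 95th percentile 1.36 to 3.43) and an LPS median of 5.50. Graded increases went from 4.60 to 7.87. Uncalled regions stood at 4.99 in untreated cells and at 5.31 with LPS.

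Nearly all newly appearing sites therefore carried some excess of cuts in untreated cells. The ratio was above 1 in both untreated libraries at 93.9% of them, below 1.5 in both at 145 sites and below 1 in both at 20. The site chr5:119528416-119528768 is one of those 20, with untreated ratios of 0.858 and 0.830 and LPS ratios of 6.82 and 5.89. Lost sites showed the same in reverse: their median ratio went from 4.91 to 2.69, and 1 of 1204 fell below 1 in both LPS libraries. The mean outside the regions was not corrected for parts of the genome to which no read can be aligned, and such parts lower it.

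The starting ratios of rising regions overlapped between classes with no gap. Between a ratio of 3 and 3.5, 36.0% of the 1237 rising regions were newly appearing and 14.8% graded. Between 2 and 2.5 the shares were 92.2% and 0.146%, and between 4 and 5 they were 2.10% and 80.8%. The hotspot lists thus divided a continuous range near a ratio of 3 to 4.

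**Figure D2:**
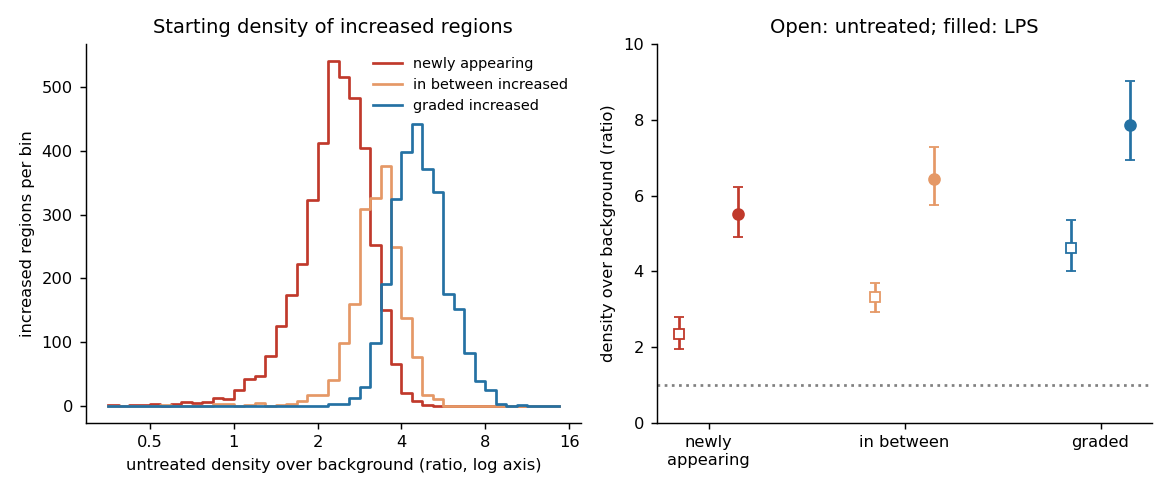
Left, number of increased regions by mean untreated density ratio (region density over the density outside all regions, log axis) for newly appearing, in between and graded increased regions. Right, median ratio with quartiles as bars in untreated (open) and LPS (filled) cells, with a dotted line at 1; medians went from 2.35 to 5.50 for newly appearing and from 4.60 to 7.87 for graded regions.

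On the density ratio, which is per length, the rising classes differed in fold and little in the amount gained. Newly appearing sites gained a median of 3.09 on the density ratio (quartiles 2.66 and 3.72), in between sites 3.08 and graded sites 3.15 (quartiles 2.66 and 3.77). Along the starting ratio of all rising regions, the median log2 fold change went from 2.26 below a ratio of 1 (50 regions) to 0.52 between 6 and 8 (322 regions), while the median gain stayed between 2.94 and 3.70. The median change was −2.20 for lost sites and −1.89 for graded decreases. Uncalled regions gained a median of 0.37 on the density ratio, though their median log2 change was −0.01. The ratio is scaled by reads outside the regions and the log2 change by reads within them. Gains and falls on the ratio are therefore not on an equal footing. In CPM, which counts the whole width of a region, the amounts differed: the median gain was 2.16 CPM for newly appearing, 2.91 CPM for in between and 4.12 CPM for graded increases, and the median change was −1.80 CPM for lost sites and −3.51 CPM for graded decreases. Only regions past the significance threshold enter these medians, and the threshold itself bounds the gain from below.

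**Figure D3:**
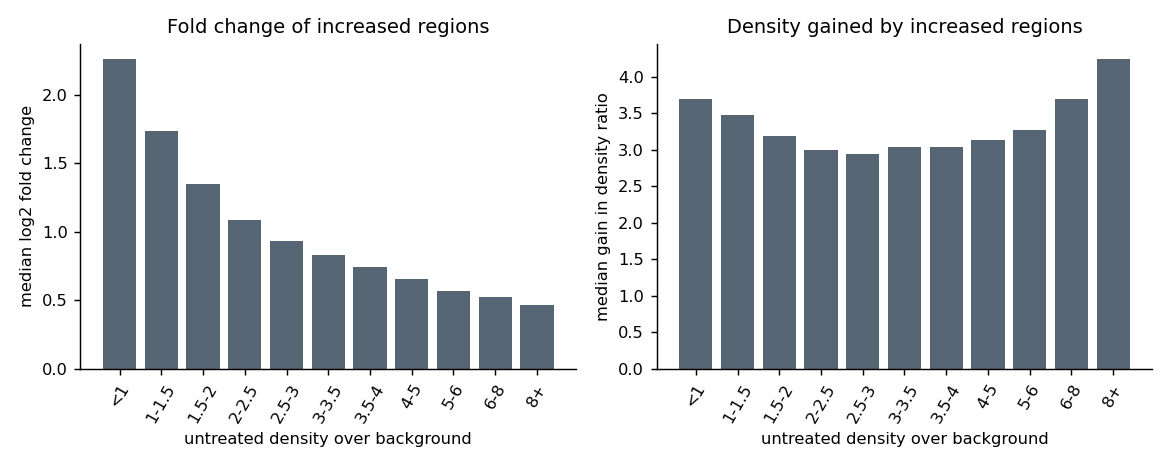
Increased regions binned by untreated density ratio (x axis). Bars give the median log2 fold change (left), which falls from 2.26 to 0.46, and the median gain in density ratio (right), which lies between 2.94 and 4.24 with its highest value in the 27 regions that start above 8.

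By summed signal, graded sites outweighed newly appearing ones. Newly appearing sites held 0.853% and 0.827% of the reads in regions in untreated cells and 1.83% and 1.79% with LPS. Graded increases held 2.24% and 2.18% against 3.40% and 3.40%. The rise was thus 0.97 percentage points for newly appearing and 1.19 for graded sites. With 2 libraries against 2, a two-sided exact permutation test cannot go below p = 0.333, which each of these classes reached. The classes were formed by the same contrast in the same libraries, so their sums had to separate the groups. The test therefore lends them no support. The sums were taken for the calls of the reported fit alone. With whole-library totals, 982 graded increases and 3861 newly appearing sites were called, and their sums were not taken.

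A starting level that helps to call a region is biased low at rising regions. The level was therefore also taken from an untreated library left out of the call. Both LPS libraries took part in each call, so the LPS side stays biased high. In 2560 newly appearing sites that were called without untreated replicate 1, the held-out replicate 1 had a median ratio of 3.07, against 2.05 in the untreated library used. The log2 change against the held-out library was 0.90, and the LPS mean lay above it at 99.5% of the sites. Of all 3345 increases called in that reading, 99.6% did so. In 39.8% of the 2560 newly appearing sites the held-out list did hold a hotspot. With untreated replicate 2 held out, 2279 newly appearing sites had a held-out ratio of 2.38, a log2 change of 1.07 and a hotspot in 6.93%. In that reading 1448 graded sites had a held-out log2 change of 0.83. Newly appearing sites kept the larger fold in both readings, but how many were without an untreated hotspot turned on which untreated library was asked; replicate 1 was the deeper one and had the longer list.

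Hotspots alone, without a significance call, were also read across replicates, which are not independent here. Every tested region had a hotspot in both lists of some group. A region with an LPS hotspot alone in one replicate therefore had one in the other LPS list or in both GCM lists. Regions with an untreated hotspot alone were listed in the like way, so the directions given next are partly built in. Regions with a hotspot in LPS replicate 1 and none in untreated replicate 1 (15850 regions) had a median log2 change of 0.43 in the second replicates, and 80.7% rose there. In the reverse reading, 31817 regions had a median of 0.28 and 74.6% rose. Regions with a hotspot in both conditions had medians of 0.00 and −0.04. Regions with an untreated hotspot alone had medians of −0.41 and −0.38. Of the 12563 regions with hotspots in both LPS lists and neither untreated list, 31.3% passed the test as increased, so most regions that a comparison of lists would count as new were not called. Of the 73581 with a hotspot in all 4 lists, 3.65% rose and 2.61% fell.

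Across all tested regions, the share called ran with the starting density, here in 10 equal classes of the untreated density ratio. In the lowest class (median 2.65), 32.9% rose and 0.0158% fell, and the median log2 change was 0.64. In the second class 11.2% rose, with a median change of 0.28. In the highest class (median ratio 8.73), 0.301% rose and 4.25% fell, with a median of −0.07. Decreases were most frequent in the eighth class, at 5.46%.

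How a region came to be listed moved with this slope. In the lowest class 78.6% of regions had one in both LPS lists and 1.35% in both untreated lists. Regions of that class that were listed through both GCM libraries and not both LPS libraries (2671) had a median log2 change of 0.18, and 1.01% rose. The slope was also present within sets of one kind: from the lowest to the highest class the median went from 0.36 (170 regions) to −0.07 for regions with both untreated hotspots, and from 0.18 to −0.64 (45 regions) for those listed through GCM. When the starting level came from 1 untreated library and the change from the other, the drop in log2 change from the lowest to the highest class went from 0.72 to 0.53 or 0.44. With the level taken from all 6 libraries it was 0.24. Both LPS libraries showed the slope: with the level from untreated replicate 1 and the change against untreated replicate 2, medians went from 0.49 to −0.11 for LPS replicate 1 and from 0.43 to −0.04 for LPS replicate 2. All these versions use the same list of regions, so the way regions came to be listed acts on them too. How much of the slope came from the listing was not tested.

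In the reported fit, regions of middle width were called most often. Increases made up 2.20% of tested regions under 150 bp, 6.58% from 150 bp up to 300 bp, 8.10% from 300 bp up to 600 bp, 6.46% from 600 bp up to 1000 bp and 2.25% from 1000 bp on. Decreases were also highest from 300 bp up to 600 bp, at 3.56%, but barely above the class from 600 bp up to 1000 bp. They made up 1.47% in the narrowest and 1.60% in the widest class. The peaks moved with the setting. By totals in regions, 3.61% fell from 300 bp up to 600 bp and 3.97% from 600 bp up to 1000 bp. By whole-library totals both directions peaked from 150 bp up to 300 bp, at 6.74% and 0.99%. For regions in all 6 hotspot lists, increases peaked from 600 bp up to 1000 bp, at 5.15%. A likelihood ratio test, no filter and the replicate number as a block kept both peaks. The kind of increase changed with width throughout: newly appearing sites were 89.2% and 87.0% of the increases in the narrowest pair of classes, then 39.2%, 10.1% and 2.09%. Graded sites made up 88.3% of the increases from 1000 bp on.

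The spread of changes narrowed steadily with width. The interquartile range of the log2 change over all tested regions was 0.75 under 150 bp, 0.46 from 300 bp up to 600 bp and 0.19 from 1000 bp on. Wide regions hold more reads (median mean count 249.8 against 12.3), which lowers their counting error. The median log2 change of called increases went from 1.48 in the narrowest to 0.51 in the widest class.

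Among regions of like read count, wider ones rose more often except in the highest count class. In the second class of 5 equal classes of mean count, 4.90% of regions from 150 bp up to 300 bp rose and 10.2% of those from 300 bp up to 600 bp. In the third class 3.93%, 7.63% and 20.3% rose with growing width. In the fourth class 7.15% rose from 300 bp up to 600 bp and 16.9% from 1000 bp on, the latter in 71 regions. In the highest class, which holds nearly all regions from 1000 bp on, the shares were 2.99%, 4.40% and 2.15%. At a given count a wider region has a lower density, so width and starting density were not separated by this comparison.

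The widest called regions were graded and changed little. The widest increase, chr17:52330124-52332952 (2829 bp), had 45.3 and 44.7 CPM untreated and 59.82 and 59.98 CPM with LPS (log2 0.41 ± 0.13). The second, chr7:96283632-96286293 (2662 bp), had 34.0 and 27.9 CPM against 53.5 and 46.3 CPM (log2 0.67 ± 0.13). The widest decrease, chr6:112112382-112115185 (2804 bp), had 56.9 and 58.6 CPM against 45.3 and 42.8 CPM (log2 −0.39 ± 0.13). None of the 3 was called under whole-library totals (edgeR adjusted p = 0.507, 0.164 and 0.793). The chromosome 17 and chromosome 6 regions also lost their calls by DESeq2 (adjusted p = 0.188 and 0.161) and when any 1 of the 4 libraries was left out, and the chromosome 6 region with the replicate number as a block and in the table of regions found in all 6 lists. The chromosome 7 region lost its call without untreated replicate 2 (edgeR adjusted p = 0.0928).

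**Figure D4:**
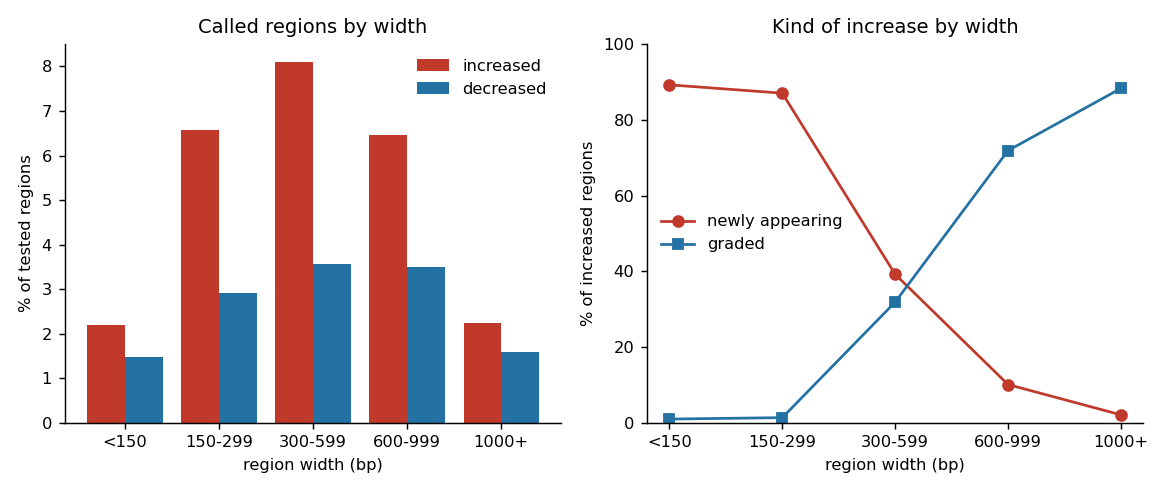
Left, percent of tested regions called increased or decreased in the reported fit, in 5 classes of region width in bp. Both are highest from 300 bp up to 600 bp, at 8.10% and 3.56%, the decreases by a small margin. The peaks moved under other settings. Right, percent of increased regions that were newly appearing or graded in the same classes; the newly appearing share goes from 89.2% to 2.09%.

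Spacing along the chromosome was read in 2 ways: how crowded a region's surroundings were, and whether adjacent regions changed alike. Regions with no other tested region within 50 kb rose in 4.51% and fell in 7.04% of cases, and those with 11 or more rose in 7.35% and fell in 2.30%. The steps between were even, with increases at 5.36%, 5.70% and 6.43% and decreases at 5.86%, 4.51% and 3.23%.

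For increases, that dependence was seen in LPS replicate 2 and not in LPS replicate 1. In LPS replicate 2 over untreated replicate 2 the median log2 difference went from −0.18 for regions without a neighbour to 0.07 for those with 11 or more. In LPS replicate 1 over untreated replicate 1 it went from −0.02 to −0.01. Between the LPS libraries (replicate 2 over replicate 1) it went from −0.16 to 0.06, a wider span than the fitted change between conditions (−0.11 to 0.03), and between the untreated libraries it stayed from 0.00 to 0.01. Without LPS replicate 2, 4.28% of lone regions and 4.00% of the most crowded rose, while decreases still differed, at 2.14% and 1.49%. Without LPS replicate 1 the shares were 2.10% and 5.58% for increases and 5.13% and 1.28% for decreases. The share of increases therefore showed no rise with crowding in the other LPS culture, and a difference between conditions cannot be told apart here from one between the LPS cultures.

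Lost sites were the most isolated class, under the same limit. The median distance to the nearest tested region was 4.44 kb for lost sites, 2.54 kb for graded decreases, 2.28 kb for newly appearing sites and 1.68 kb for graded increases, against 1.79 kb for all. No other tested region lay within 20 kb of 18.7% of lost sites, 6.28% of newly appearing sites, 2.83% of graded increases and 6.04% of all regions.

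Adjacent regions changed in the same direction more often than regions at large. The nearest tested region had also risen for 14.1% of increases, against 6.54% of all regions, and had fallen for 127 of the 8470, against 2.97% of all. For decreases the nearest had fallen in 6.49% and risen in 3.15%. Newly appearing sites had a rising neighbour in 16.1% of cases and graded increases in 12.8%. Under 1 kb the share of increases with a rising neighbour was 15.7%, and from 5 kb up to 20 kb it was 11.5%, against 5.78% and 6.52% of all regions at those distances. From 20 kb up to 100 kb it was 12.7% against 5.74%, so the share did not fall steadily with distance. For decreases the share with a falling neighbour was highest there, at 15.3%, and was 7.04% under 1 kb. The share over all regions was also higher there, at 5.54% against 2.39% under 1 kb.

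This excess did not rest on LPS replicate 2. Without it the nearest region had risen for 9.93% of increases against 4.10% of all, and without LPS replicate 1 for 10.9% against 4.47%. After broad stretches of 1 Mb were levelled in each library, the shares were 12.1% and 6.47%.

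The likeness was weak over single regions. Across adjacent regions under 1 kb apart, Pearson's r of the log2 changes was 0.20, and from 100 kb on it was 0.09. Adjacent regions share their libraries and any broad difference between them: r was 0.21 under 1 kb for LPS replicate 2 over LPS replicate 1 and 0.04 for the untreated libraries. With the change at one region taken from the first replicates and at its neighbour from the second, r was 0.10 under 1 kb, 0.06 from 5 kb up to 20 kb and 0.11 from 20 kb up to 100 kb. The same region read in both replicate pairs gave r = 0.57 over 126284 regions. These r values describe regions and carry no test.

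**Figure D5:**
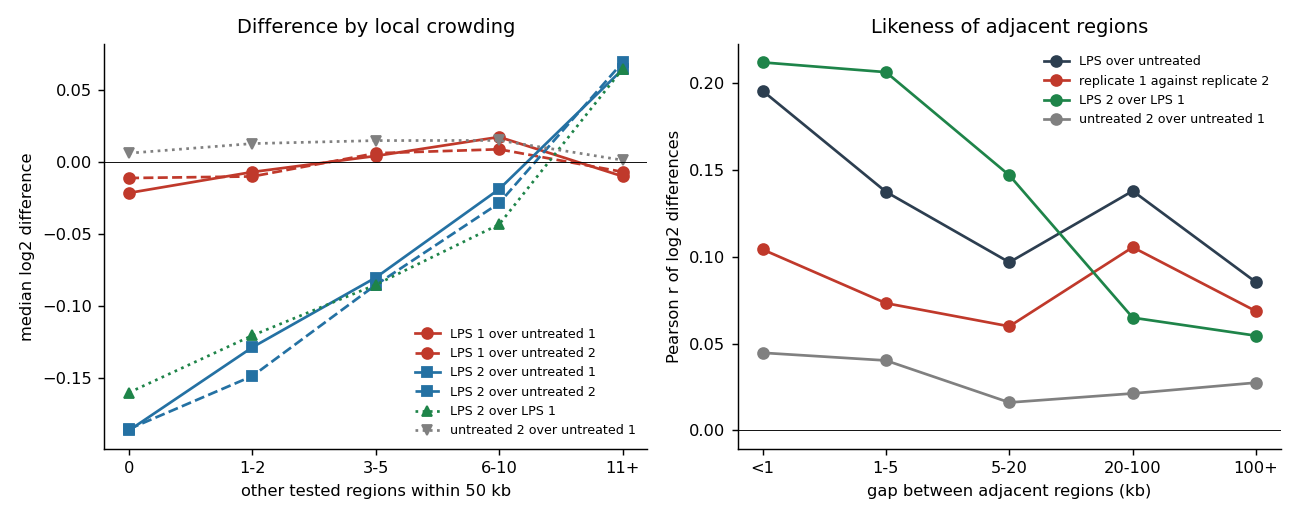
Left, median log2 difference between single libraries by the number of other tested regions within 50 kb; both lines for LPS replicate 2 climb from −0.18 or −0.19 to 0.06 or 0.07, LPS replicate 2 over replicate 1 climbs from −0.16 to 0.06, and those for LPS replicate 1 stay between −0.02 and 0.02. Right, Pearson r of log2 differences between adjacent regions by the gap in kb, for LPS over untreated, for the first replicates against the second, and between libraries of 1 group.

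Neighbouring increases formed short runs. Consecutive tested regions that all rose made up 905 runs of 2 or more, with 1982 regions (23.4% of the increases); 134 runs held 3 or more and the longest held 7. In 305 runs there was at least 1 newly appearing and at least 1 graded site. Decreases formed 221 runs of 2 or more with 470 regions (11.9% of the decreases), of which 20 held 3 or more. Increases were 6.71% of all tested regions and decreases 3.14%, and more frequent calls fall side by side more often. The run shares expected from these rates were not computed, so the shares of the 2 directions cannot be compared as clustering. Runs of 3 or more spanned a median of 15.3 kb for increases and 41.4 kb for decreases.

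The longest run of increases, chr18:32563564-32640432, held 7 regions over 76.9 kb, of which 4 were newly appearing and 1 graded. Its summed level was 14.8 and 11.5 CPM untreated and 30.5 and 29.1 CPM with LPS. The log2 changes of its regions lay between 0.73 and 1.94, while the tested regions on either side had −0.08 and 0.48, neither of which was called.

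A denser run, chr5:166916801-166929016, held 5 regions in 12.2 kb and went from 23.2 and 22.3 CPM to 46.7 and 44.9 CPM. It shows the classes intermixed: the newly appearing region chr5:166926173-166926526 (2.87 and 1.40 CPM to 4.57 and 5.39 CPM) lay 904 bp from its nearest neighbour, and the graded region chr5:166928280-166929016 (7.70 and 7.57 CPM to 12.5 and 13.4 CPM) closed the run. The third, chr6:61631414-61647500, went from 27.3 and 26.1 CPM to 46.0 and 50.8 CPM over 5 regions, and its graded end region chr6:61631414-61632141 carried the most signal of the run (13.7 and 12.3 CPM to 20.6 and 23.7 CPM).

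Runs of decreases were looser. The run chr2:140557260-140808899 spread 5 regions, 3 of them lost sites, over 251.6 kb, and went from 22.0 and 25.8 CPM to 13.10 and 11.995 CPM. The run chr15:324242-626002 covered 301.8 kb in 5 regions and went from 19.9 and 21.4 CPM to 11.7 and 11.3 CPM. In contrast, chr1:56166548-56171635 packed 5 regions with gaps of under 300 bp into 5.09 kb, and went from 116.3 and 131.9 CPM to 86.6 and 90.8 CPM.

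Chromosomes differed modestly. Increases made up between 3.86% of tested regions on chromosome 12 and 8.63% on chromosome 11. Chromosome 12 held 3.04% and 3.08% of the reads in regions in untreated cells and 2.92% and 3.01% with LPS. The LPS cultures differed from each other there by more than the lower untreated value differed from the higher LPS value.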

How the data were processed

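DNase I-seq was measured in 6 libraries (untreated, LPS and GCM, 2 cultures each). Deposited by the authors were raw counts per region, CPM per library, and 1 hotspot list per library whose score has no stated definition; only the intervals of the lists were used, and the false discovery rate of 0.01 stands in their file names. Per the submitters' processing notes, cutadapt 1.8.3, Bowtie 1.1.2, Picard 1.95, SAMtools, DiffBind and edgeR were used with build rn5, with no role or order given; the counting settings are not given in the sources used here. The deposited CPM gave the whole-library totals, and the deposited fold changes were not used.

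Counts were refitted with edgeR 4.0.16 (R 4.3.3): regions passing a minimum count of 10 (filterByExpr), TMM scaling on reads in regions, quasi-likelihood test, all 6 libraries sharing 1 estimate of the spread, Benjamini-Hochberg adjustment over 126284 regions, threshold 0.05. DESeq2 1.42.0 was an alternative. The count test was tested on simulated data. A hotspot counted where it overlapped a region by at least 1 bp. Density ratios divide by the mean density outside the 62.5 Mb of regions within 2899.8 Mb. Named regions are, in each class, the 5 with the largest absolute log2 fold change among called regions whose groups do not overlap and whose higher group averages at least 5 CPM, plus the 3 widest called and the 3 longest runs in each direction; ranks not described were left out for length. Classes and lists were chosen with earlier results of these data known. Replicates are separate cultures, and 2 per group limit every p-value. Gene names were not used here, since the gene tables at hand are of another build than rn5.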

Additional observations from a re-analysis of the deposited data

How the results depend on the processing

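Every setting tried kept the direction of all regions called in both it and the reported fit. With 8470 increases and 3963 decreases as reported, DESeq2's test gave 724 and 67, a table limited to regions found in all 6 hotspot lists 2648 and 1094, and whole-library totals 686 decreases; leaving out 1 library gave 3347 to 5726 increases and 903 to 2571 decreases. The newly appearing share of increases (46.4%) was 52.5% by DESeq2's test, 61.4% by whole-library totals, 53.1% when a hotspot had to cover 50% of the region, 25.4% when defined by a level under 2 CPM and 43.3% to 56.8% without 1 library. The lost share of decreases (30.4%) was 22.4%, 66.0%, 35.8% and 20.8% in the same order, 27.6% with broad stretches levelled, 28.5% with a minimum count of 20 and 19.7% to 40.1% without 1 library. The increased share of calls (68.1%) was 66.4% by DESeq2's size factors, 91.5% by its test, 66.1% with autosomal scaling, 65.8% with broad stretches levelled, 67.1% by a likelihood ratio test, 67.2% with a minimum count of 20 and with no filter, 66.4% with the 4 libraries alone, 70.8% for regions in all 6 lists, 65.8% by totals in regions, 90.2% by whole-library totals and 69.0% to 80.5% without 1 library. With the replicate number as a block, 9398 regions rose and 5043 fell, the newly appearing share was 43.8% and the increased share 65.1%. Same-numbered samples correlated in their deviations at 0.05 for untreated and LPS, 0.10 for untreated and GCM and 0.001 for LPS and GCM. Whether the numbers pair the cultures cannot be told from these values. The difference in log2 change between the lowest and highest of 10 classes of starting density (0.72) was 0.53 and 0.44 with split untreated libraries, 0.31 with the level from the GCM libraries and 0.24 with all 6, the last chosen after seeing the data. The percentage of increases from 300 bp up to 600 bp less that from 1000 bp on (5.85) was −9.75 in the fourth and 0.84 in the fifth class of read count and 1.49 for regions with both untreated hotspots. The likeness of regions under 1 kb apart (r = 0.20) was 0.15 with broad stretches levelled, 0.21 between the LPS and 0.045 between the untreated libraries, and, chosen after seeing the data, 0.10 across replicate pairs and 0.12 across crossed pairs. The cause of these differences was not tested. Depth limits the narrowest regions most: under 150 bp the median mean count was 12.3 reads.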

Other observations

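The GCM libraries give the level of the LPS-called sites under another stimulus, with no test made. Newly appearing sites had median levels of 2.33 and 2.54 CPM in the GCM libraries, between the untreated (1.97 and 1.96 CPM) and LPS values (4.27 and 4.08 CPM), and 17.1% of them had a hotspot in both GCM lists while 59.7% had one in neither. Graded increases stood at 8.73 and 8.68 CPM with GCM, also between their untreated and LPS medians. Lost sites stood at 2.46 and 2.70 CPM with GCM, against 3.49 and 3.92 CPM untreated and 1.83 and 1.96 CPM with LPS, and graded decreases at 9.46 and 9.50 CPM. The untreated and LPS values helped to choose these sites and the GCM values did so only through the shared estimate of the spread and the region list, so a GCM value between the other pair is a description.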
